A study of Mus musculus with 15 samples.

Results

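The genes of the cell division cycle were followed through the aorta-gonad-mesonephros (AGM) region of the mouse embryo. The set holds 45 gene symbols, chosen by name. The deposited table of 28876 genes had a row under the same name for 44 of them. The remaining gene, Cdk1, is listed under its older symbol Cdc2a (ENSMUSG00000019942), was matched by Ensembl identifier and is described beside the others without being counted. Of the 44 members, 43 reached at least 0.5 RPM (reads per 1000000 reads assigned to genes) in at least 1 library and were tested among 18553 genes. Cdkn2a did not, and Cdkn2b did so through E9.5 AoV alone. Of the 43, 41 had a mean of at least 5 RPM over all libraries.

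All embryos were of the C57BL/6 strain, and no transgene or treatment is given for any group. At E9.5 (embryonic day) the AGM was cut into AoD, the dorsal piece of the aorta and the tissue around it, and AoV, its ventral counterpart. At E10.5 the urogenital ridges (UGR) were taken as well. Each of these 5 groups has 3 libraries, and each library holds whole tissue pooled from several embryos, so that all cell types of the dissected piece contribute. RNA was sequenced to ask what changes as the ventral aorta gains the capacity to support blood stem cell development between E9.5 and E10.5.

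A cell enters the cycle when D-type and then E-type cyclins activate their kinases, which phosphorylate the retinoblastoma family of pocket proteins and release E2F transcription factors. E2F factors switch on the genes for loading the MCM helicase and for making DNA, and a later wave of genes drives mitosis. The CDK inhibitors of the CIP/KIP family (Cdkn1a, Cdkn1b) and of the INK4 family (Cdkn2a to Cdkn2d) hold these kinases back, and many cells raise 1 or more of them as they leave the cycle to differentiate.

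Depth, worked out from the steps between low RPM values, lay between 33700000 and 48600000 reads per library. A count of 0 leaves room for a level of up to 3 reads, worth 0.0617 to 0.0891 RPM, which covers counting error only. Libraries of a group correlated with r between 0.993 and 0.997 across genes. Marker genes showed that the groups also differ in tissue. The summed RPM of 8 neural tube genes was 273 to 497 in E9.5 AoD, 161 to 218 in E10.5 AoD and 19.4 to 32.7 in the ventral and urogenital libraries, with Sox1 at 0 in at least 1 library. The sum of 6 gut and liver genes was 454 to 660 in E9.5 AoV against at most 56.3 in any other group, with Ttr and Foxa3 at 0 in some libraries. The sum of 6 erythroid genes varied within groups, from 2761 to 12952 in E9.5 AoV. Other sums moved with stage. The 6 urogenital ridge genes summed to 157 to 168 in E9.5 AoV and 482 to 502 in E10.5 AoV, and the 5 germ cell genes to 3.68 to 5.21 and 23.2 to 26.2, with Dazl at 0 in at least 1 library. The 5 macrophage genes summed to 5.32 to 9.60 in E9.5 AoD and 58.4 to 64.7 in E10.5 AoD, and to 10.8 to 12.7 and 46.3 to 53.6 in AoV. The 4 endothelial genes summed to 228 to 305 in E9.5 AoD and 471 to 510 in E10.5 AoD. The part of these tissues in the results below was not tested. In bulk tissue, fewer cells expressing a gene and less RNA per cell cannot be told apart.

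Between E9.5 and E10.5, 32 of the 43 tested cycle genes had a lower mean log2 level at E10.5 in the dorsal aorta and 32 in the ventral aorta, mostly by small amounts, while several CDK inhibitor and pocket protein genes increased. In AoV 25 of the 43 tested members passed the test (limma, Benjamini-Hochberg adjusted p below 0.05 over all tested genes), against a background of 46% of all tested genes. Of these, 6 were higher and 19 were lower at E10.5, where the backgrounds were 23.6% and 22.4%. In AoD 30 of 43 members passed, against a background of 57.8%, with 5 higher and 25 lower, where the backgrounds were 30% and 27.9%. The median log2 fold change of the members was -0.12 in AoV and -0.24 in AoD, where that of all tested genes was 0.00 on both sides. Among tested genes with a mean of at least 5 RPM the background was 47.4% in AoV and 63.3% in AoD, with 24.3% and 33.1% lower. With a fold change of at least 2 added to the threshold, 1 member remained in AoV and 2 remained in AoD, where the backgrounds were 11% and 12.6%. The values of the 3 libraries did not overlap between stages for 27 members in AoV (22 lower) and for 32 members in AoD (26 lower), against backgrounds of 55% (27.3% lower) and 60.7% (29.4% lower). The shift toward lower values was thus shared by many members and, for nearly all of them, smaller than 2-fold.

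**Figure D1:**
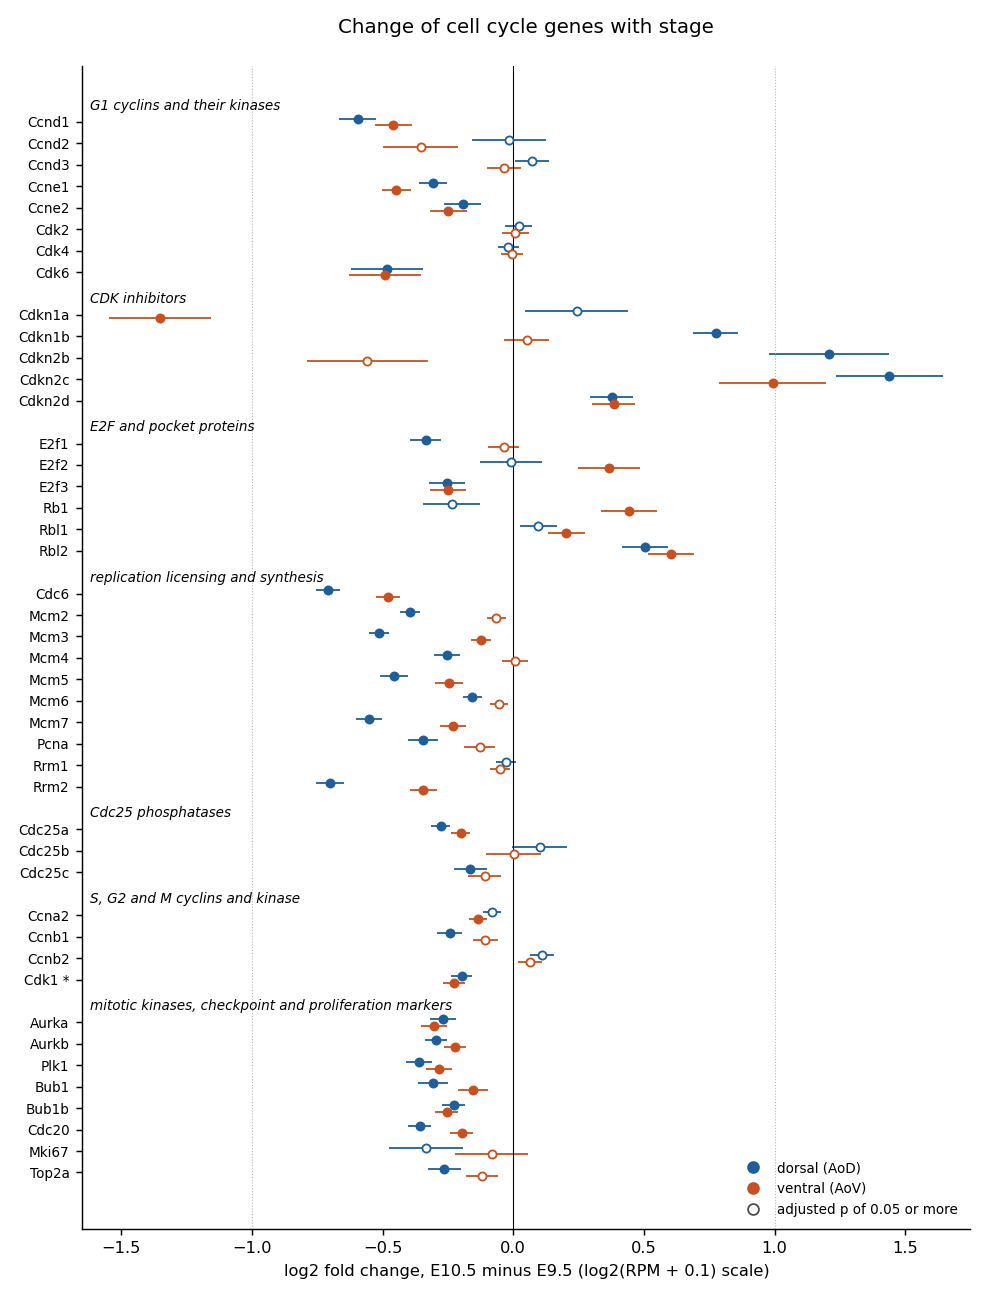
Change of each tested cell cycle gene from E9.5 to E10.5, as log2 fold change on the log2(RPM + 0.1) scale with its standard error, in AoD (blue) and AoV (orange), by role. Filled circles have an adjusted p below 0.05, dotted lines mark a fold change of 2, and Cdk1 (asterisk) is listed as Cdc2a. The replication and mitosis genes lie mostly left of 0, and Cdkn1a is apart from the other inhibitors, at -1.35 in AoV.

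E9.5 AoD was the group with the highest mean for 31 of the 43 tested members, and E10.5 AoV was the group with the lowest mean for 26. E9.5 AoD held the highest mean for all 10 replication genes and for all 8 genes of the mitotic kinases, checkpoint and proliferation markers. E10.5 AoV held the highest mean for 0 of the 43. The tested CDK inhibitors had another order, with the highest mean in E10.5 AoD for 3 of 5 and the lowest mean in E9.5 AoD for 3 of 5. Cdkn2b, which entered the test through E9.5 AoV alone, is among those lowest in E9.5 AoD. The highest and lowest groups were not counted over all tested genes. These counts thus have no background and are given as a description of the members. Averaged over its genes, the replication group lay 0.30 ± 0.05 log2 units above the mean of all libraries in E9.5 AoD (SD, n = 3), 0.03 ± 0.03 above it in E9.5 AoV and 0.14 ± 0.04 below it (a value of -0.14) in E10.5 AoV. The mitotic group lay at 0.23 ± 0.04 in E9.5 AoD, 0.05 ± 0.01 in E9.5 AoV, -0.07 ± 0.03 in E10.5 AoD, -0.15 ± 0.02 in E10.5 AoV and -0.06 ± 0.01 in E10.5 UGR.

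**Figure D2:**
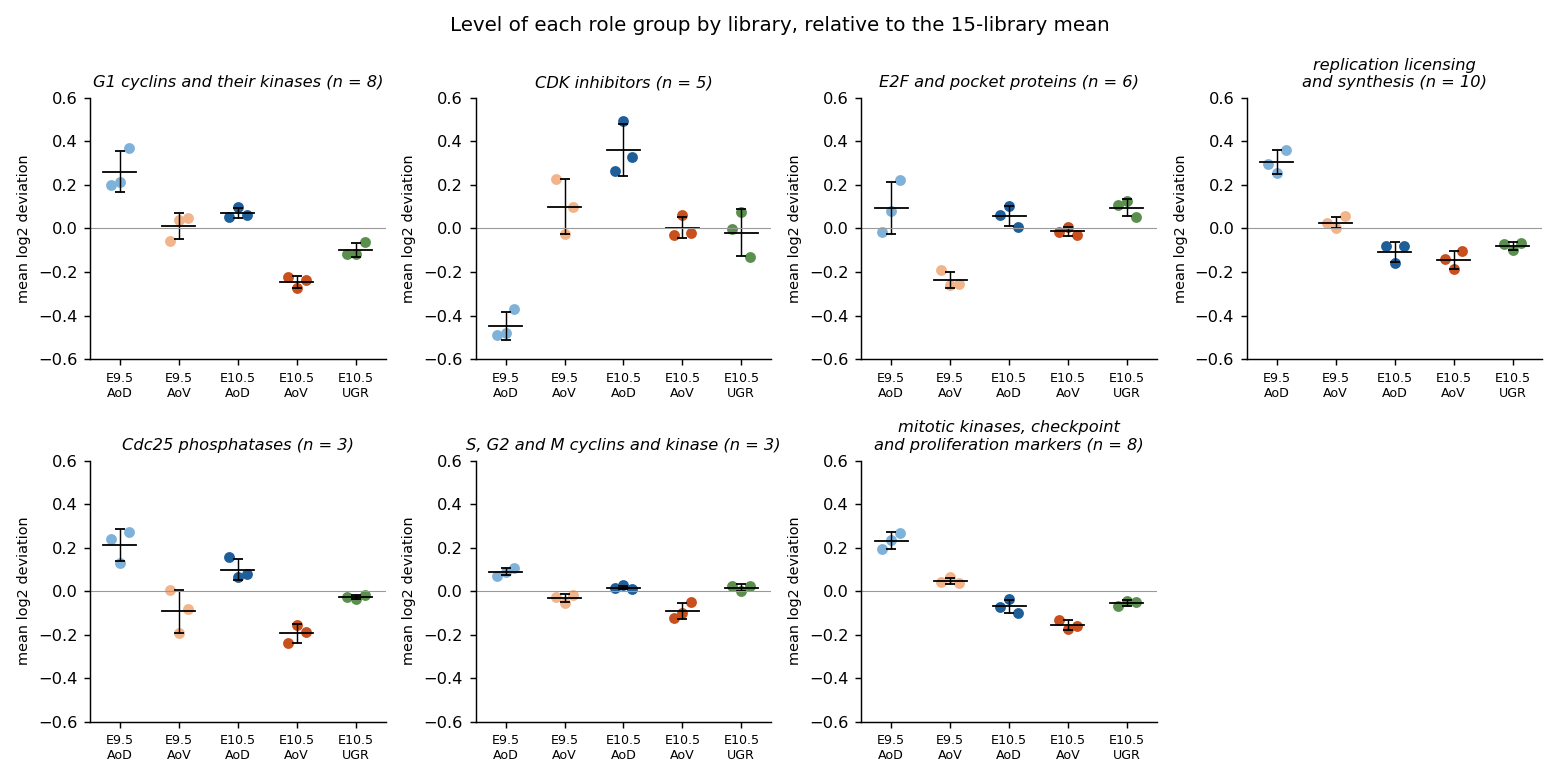
Mean log2 deviation of each role group from its mean over all 15 libraries, with 1 point per library, the group mean as a bar and the SD as whiskers. Cdkn2a and Cdk1 are not included. Replication and mitosis genes are highest in the 3 E9.5 AoD libraries, while the CDK inhibitors are lowest there. The CDK inhibitor mean includes Cdkn2b, which entered the test through E9.5 AoV alone and had at most 4 reads in an E9.5 AoD library. A mean without it was not computed.

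Of the 8 G1 cyclins and kinases, Ccnd1, Ccne1, Ccne2 and Cdk6 fell with stage on both sides and 0 increased. Over all tested genes 22.4% were lower in AoV and 27.9% in AoD. Ccnd1, Ccnd2 and Ccnd3 encode the D-type cyclins, which couple growth signals to the cycle. Ccnd1 (chr7:152115836-152125774, minus strand, NCBIM37) measured 300, 295 and 378 RPM in E9.5 AoD, 198, 207 and 205 in E9.5 AoV, 213, 217 and 210 in E10.5 AoD, 154, 142 and 148 in E10.5 AoV, and 308, 306 and 319 in E10.5 UGR. The E10.5 AoV libraries lay below all others, and the E9.5 AoD and UGR libraries above all others. Ccnd1 fell by 27.2% in AoV (log2 fold change -0.46 ± 0.07, SE, adjusted p = 9.95e-05) and by 33.8% in AoD (-0.59 ± 0.07, adjusted p = 5.35e-06), and was lower in E10.5 AoV than in UGR by 1.07 log2 units (adjusted p = 4.43e-08). The highest E9.5 AoD value came from the library that also had the highest neural tube sum. That sum was 161 to 218 RPM in E10.5 AoD, 19.4 to 23.2 in E9.5 AoV and 24.1 to 26.9 in UGR. The part of this tissue in the Ccnd1 levels was not tested.

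Ccnd2 (chr6:127075797-127101066, minus strand) was dorsal at both stages. It measured 127, 139 and 203 RPM in E9.5 AoD, 79.8, 112 and 99.8 in E9.5 AoV, 143, 166 and 146 in E10.5 AoD, 77.5, 75.4 and 73 in E10.5 AoV, and 64.4, 66.8 and 70.3 in UGR. At E10.5 the AoD values did not overlap with those of AoV or UGR, and AoV was lower than AoD by 50.2% (adjusted p = 4.98e-05). The stage change of Ccnd2 was -0.02 ± 0.14 in AoD (adjusted p = 0.933) and -0.35 ± 0.14 in AoV (adjusted p = 0.0552), and neither passed the test.

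Ccnd3 (chr17:47642000-47736632, plus strand) had the opposite polarity. Its values were 217, 198 and 190 RPM in E9.5 AoD, 283, 232 and 259 in E9.5 AoV, 208, 218 and 209 in E10.5 AoD, 241, 253 and 259 in E10.5 AoV, and 217, 239 and 229 in UGR. AoV exceeded AoD by 0.35 ± 0.07 at E9.5 (adjusted p = 0.000507) and by 0.25 ± 0.07 at E10.5 (adjusted p = 0.00963), and the stage changes of 0.07 and -0.04 did not pass. Of the 50-base windows of Ccnd3 transcripts, 16.7% also occur elsewhere in the genome, and its reads may be divided with other copies.

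Per kilobase of exon, which allows the 3 genes to be set side by side, Ccnd3 made up 68.2 ± 1.47% of the D cyclin level in E10.5 AoV (SD, n = 3), 61.9 ± 3.69% in E9.5 AoV, 53.3 ± 0.28% in E10.5 AoD, 52.1 ± 1.33% in UGR and 44.6 ± 5.40% in E9.5 AoD. Ccnd1 made up 23.7 ± 1.17% in E10.5 AoV and 41.8 ± 1.23% in UGR. The AoV libraries of both stages thus held a larger share of Ccnd3 than any AoD or UGR library did, the lowest AoV share being 58.3% and the highest share elsewhere 53.7%.

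**Figure D3:**
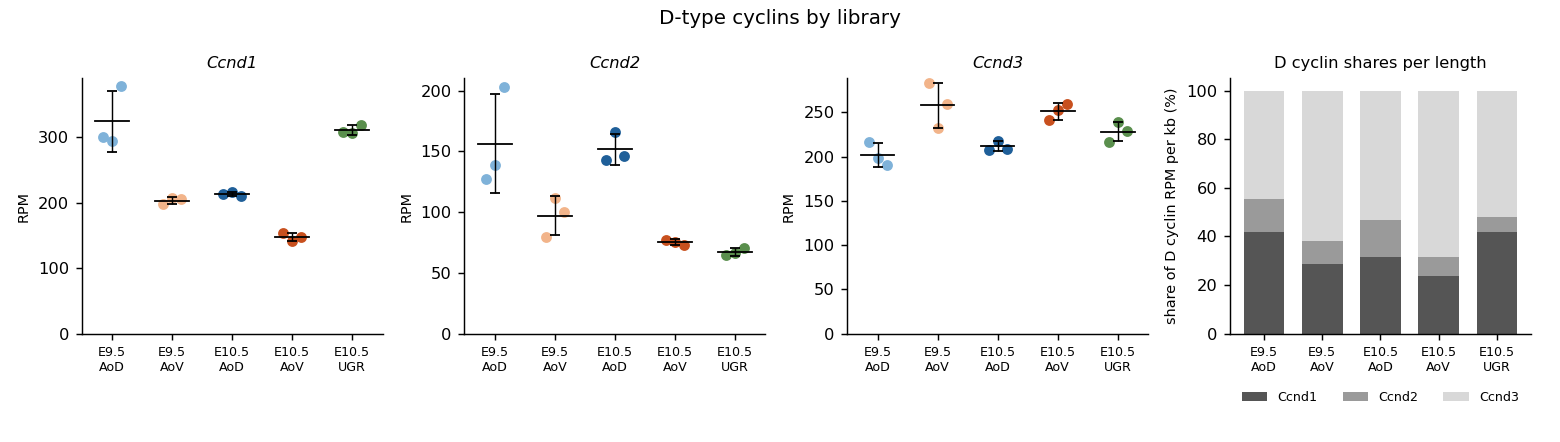
RPM of Ccnd1, Ccnd2 and Ccnd3 in each library (points, with group mean and SD) and, at the right, the mean share of each in the summed D cyclin RPM per kilobase of exon. Ccnd1 is lowest in E10.5 AoV, Ccnd2 is high in AoD, and the Ccnd3 share is largest in E10.5 AoV.

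Ccne1 and Ccne2 encode the E-type cyclins, which partner Cdk2 at the start of DNA replication. Ccne1 (chr7:38883003-38892553, minus strand), named here after its values were seen, measured 114, 103 and 112 RPM in E9.5 AoD, 75.2, 68.3 and 75.9 in E9.5 AoV, 88.6, 87.6 and 89.2 in E10.5 AoD, 53.3, 51.2 and 56.3 in E10.5 AoV, and 63.2, 65.7 and 60.5 in UGR. Its group ranges did not overlap between any pair of groups. It fell with stage on both sides (-0.45 ± 0.05 in AoV, adjusted p = 9.14e-06, and -0.31 ± 0.05 in AoD, adjusted p = 0.000198) and was lower ventrally at both stages (-0.58 ± 0.05 at E9.5 and -0.72 ± 0.05 at E10.5). Ccne2 had its highest mean in E9.5 AoD, 53.8 ± 4.34 RPM, and its lowest in E10.5 AoV, 41.5 ± 2.31 RPM. Its stage calls were the weakest of the 4, being lost in AoV without replicate 2 of E9.5 AoV or of E10.5 AoV (adjusted p of up to 0.0518) and in AoD without replicate 2 or 3 of E9.5 AoD or any 1 replicate of E10.5 AoD (adjusted p of up to 0.11).

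The kinases Cdk2 and Cdk4 varied little. Cdk2 ranged from 72.0 to 81.5 RPM over the 15 libraries and Cdk4, the kinase of the D cyclins, from 673 to 760 RPM. Their coefficients of variation over all libraries were 3.71% and 3.79%, lower than those of all but 0.71% and 0.88% of tested genes. Cdk6, the alternative D cyclin kinase, had a mean of 1.59 RPM per kilobase of exon over the 15 libraries, where Cdk4 had 218. It measured 6.86, 7.36 and 9.56 RPM in E9.5 AoD, 5.56, 7.3 and 7.27 in E9.5 AoV, 5.23, 6.12 and 5.42 in E10.5 AoD, 5.37, 4.63 and 4.21 in E10.5 AoV, and 4.76, 4.48 and 5.08 in UGR. It fell by 0.49 ± 0.14 log2 units in AoV (adjusted p = 0.0092) and by 0.48 ± 0.14 in AoD (adjusted p = 0.00736).

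The CDK inhibitors did not move as a block. Of the 5 that were tested, 4 increased with stage in AoD and 0 decreased, while in AoV 2 increased and 1 decreased. The 4 include Cdkn2b, which entered the test through E9.5 AoV alone. Over all tested genes 30% were higher in AoD, and 23.6% were higher and 22.4% lower in AoV. Cdkn1a (chr17:29227924-29237667, plus strand) encodes p21, the inhibitor that p53 induces on DNA damage. It measured 10.9, 9.51 and 12.4 RPM in E9.5 AoD, 13.8, 15 and 14.1 in E9.5 AoV, 10.8, 15.6 and 12.7 in E10.5 AoD, 6.33, 5.19 and 5.17 in E10.5 AoV, and 18, 23.9 and 11.9 in UGR. The 3 E10.5 AoV libraries lay below the other 12, and the UGR libraries were uneven. Cdkn1a fell by 60.8% with stage in AoV (log2 fold change -1.35 ± 0.20, adjusted p = 5.33e-05), and its change in AoD was 0.24 ± 0.20 (adjusted p = 0.306). The difference between these changes passed its own test, at -1.59 ± 0.28 (adjusted p = 0.000523). At E10.5, AoV was lower than AoD by 56.6% (adjusted p = 0.000186) and lower than UGR by 67.5% (adjusted p = 1.59e-05).

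Cdkn1b (chr6:134870419-134875531, plus strand) encodes p27, a regulator of exit from the cycle. Its values were 35.2, 39.4 and 45 RPM in E9.5 AoD, 45.7, 50.2 and 46.1 in E9.5 AoV, 72.9, 70.5 and 61.1 in E10.5 AoD, 49, 50.2 and 47.8 in E10.5 AoV, and 54.9, 50.2 and 47.2 in UGR. The E10.5 AoD libraries lay above all others. Cdkn1b increased 1.71-fold in AoD (0.78 ± 0.09, adjusted p = 2.45e-06), its change in AoV was 0.05 ± 0.09 (adjusted p = 0.665), and the difference between both changes was -0.72 ± 0.12 (adjusted p = 0.000391). In the same E10.5 AoD libraries the summed RPM of 6 markers of postmitotic neurons and sympathoadrenal cells was 220 to 275. The sum was 45.4 to 58 in E9.5 AoD, 70.0 to 78.1 in E9.5 AoV, 114 to 122 in E10.5 AoV and 40.1 to 45.7 in UGR. All 6 of these markers were above 0 in every library, and their part in the Cdkn1b result was not tested.

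Cdkn2c (chr4:109333481-109339794, minus strand) encodes the INK4 protein p18. It measured 1.57, 1.18 and 1.24 RPM in E9.5 AoD, 2.17, 1.32 and 1.52 in E9.5 AoV, 3.05, 4.87 and 3.55 in E10.5 AoD, 3.14, 4.12 and 2.91 in E10.5 AoV, and 2.01, 2.45 and 1.86 in UGR. Every E10.5 aorta library exceeded every E9.5 library. The increase was 1.99-fold in AoV (0.99 ± 0.21, adjusted p = 0.00114) and 2.71-fold in AoD (1.44 ± 0.21, adjusted p = 2.96e-05). Cdkn2d (chr9:21092907-21095653, minus strand), which encodes p19, measured 7.89, 7.53 and 6.83 RPM in E9.5 AoD, 7.88, 6.59 and 7.09 in E9.5 AoV, 9.04, 10 and 9.93 in E10.5 AoD, 9.27, 9.39 and 9.5 in E10.5 AoV, and 8.74, 9.17 and 8.2 in UGR. It increased by 0.38 ± 0.08 log2 units on both sides (adjusted p = 0.00142 in AoV and 0.00114 in AoD). Of its 50-base windows, 92.2% also occur elsewhere in the genome, so that its reads cannot be told apart from those of a copy and its level is uncertain.

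The pair of INK4 genes that lie next to each other on chromosome 4 was barely expressed. Cdkn2b (chr4:88952198-88956941, minus strand) measured 0.57, 0.348 and 0.547 RPM in E9.5 AoV, 0.0246, 0.0806 and 0.0855 in E9.5 AoD, 0.282, 0.251 and 0.284 in E10.5 AoD, 0.233, 0.307 and 0.349 in E10.5 AoV, and 0.0889, 0.0617 and 0.141 in UGR. This was worth about 63 reads in all in E9.5 AoV and about 8 in E9.5 AoD. Cdkn2b entered the test because of its E9.5 AoV libraries, so its difference from E9.5 AoD at that stage (1.85 ± 0.23 log2 units) is given as a description. In AoD it increased by 1.21 ± 0.23 with stage (adjusted p = 0.000394). Cdkn2a (chr4:88920377-88940557, minus strand), which encodes p16 and p19Arf, had about 10, 12 and 8 reads in the E9.5 AoV libraries (0.228, 0.278 and 0.19 RPM), at most 3 reads in each of the other libraries, and was listed at 0 in all 3 UGR libraries. E9.5 AoV is also the group with the high gut and liver marker sum given above, whose part was not tested.

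**Figure D4:**
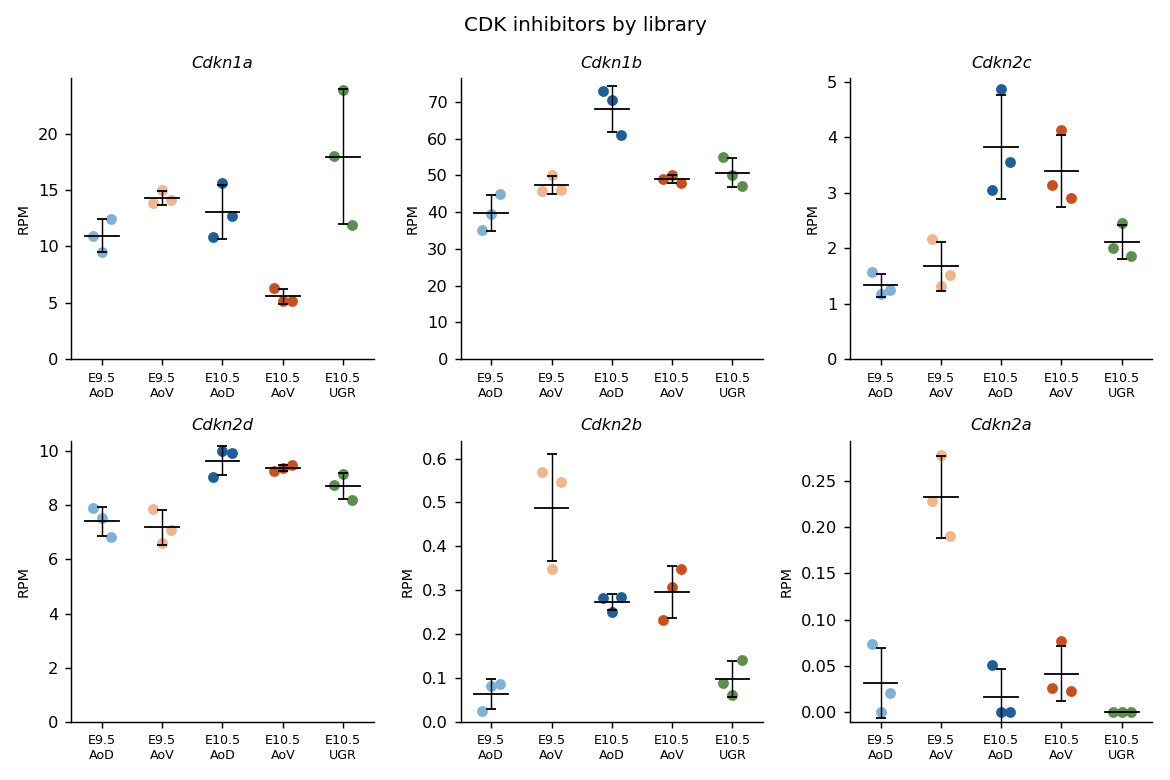
RPM of the 6 CDK inhibitor genes in each library, with group mean and SD (n = 3). Cdkn1a is lowest in E10.5 AoV, Cdkn1b is highest in E10.5 AoD, Cdkn2c is higher at E10.5, and Cdkn2b and Cdkn2a stay below 0.6 RPM.

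Of the retinoblastoma family and the E2F genes, Rb1, E2f1 and E2f2 were lower in AoV than in AoD at E9.5. Rbl2 (chr8:93593956-93647743, plus strand) encodes p130, the pocket protein of quiescent cells, and was the member of this group that increased most on both sides. It measured 7.19, 9.39 and 8.62 RPM in E9.5 AoD, 9.74, 9.27 and 9.48 in E9.5 AoV, 11.6, 12.6 and 11.5 in E10.5 AoD, 13.5, 15.1 and 14.9 in E10.5 AoV, and 15.1, 16.3 and 14.4 in UGR. Every E10.5 library exceeded every E9.5 library, and the increase was 1.52-fold in AoV (0.60 ± 0.09, adjusted p = 6.15e-05) and 1.42-fold in AoD (0.50 ± 0.09, adjusted p = 0.000206).

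Rb1 (chr14:73583480-73725629, minus strand), the retinoblastoma gene, is named after its values were seen. It measured 15.4, 14.8 and 14.6 RPM in E9.5 AoV, 24.2, 28.1 and 35.5 in E9.5 AoD, 24.8, 26.6 and 22.4 in E10.5 AoD, 20.9, 20.4 and 19.7 in E10.5 AoV, and 24.9, 27.1 and 23 in UGR. The E9.5 AoV libraries lay below all others, by 0.95 ± 0.11 log2 units against E9.5 AoD (adjusted p = 4.7e-06). Rb1 increased 1.36-fold with stage in AoV (adjusted p = 0.00384), its change in AoD was -0.24 ± 0.11 (adjusted p = 0.0765), and the difference of 0.68 ± 0.15 passed (adjusted p = 0.00379).

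E2f1 (chr2:154385143-154395628, minus strand), an activator of replication genes, measured 59.5, 55.6 and 63.3 RPM in E9.5 AoD and 39.8 to 49.0 RPM in the other 12 libraries. It fell by 0.34 ± 0.06 in AoD (adjusted p = 0.000261), its change in AoV was -0.04 ± 0.06 (adjusted p = 0.656), and the changes differed by 0.30 ± 0.09 (adjusted p = 0.0173). E2f3, another activator, decreased by 0.25 ± 0.07 on both sides (adjusted p = 0.00825 in AoV and 0.00535 in AoD), from 95.9 ± 8.83 to 80.1 ± 1.96 RPM in AoD and from 91.3 ± 5.95 to 76.8 ± 4.95 RPM in AoV. Of this group of 6 genes, E2f2, Rb1, Rbl1 and Rbl2 were higher and E2f3 was lower at E10.5 in AoV. The backgrounds there were 23.6% higher and 22.4% lower. The AoV call of E2f2 was lost without replicate 2 or 3 of E9.5 AoV or replicate 2 of E10.5 AoV (adjusted p of up to 0.1), and that of Rbl1 without replicate 1 or 3 of E9.5 AoV or replicate 1 or 2 of E10.5 AoV (adjusted p of up to 0.12).

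The genes that license and copy DNA fell in AoD nearly without exception and in AoV in part. In AoD 9 of the 10 fell with stage (median -0.43), and in AoV 5 of the 10 fell (median -0.13), with 0 higher on either side. Over all tested genes 27.9% were lower in AoD and 22.4% in AoV. Cdc6 (chr11:98769115-98785254, plus strand), which loads the MCM helicase onto origins, changed most. It measured 80.9, 81.5 and 89.2 RPM in E9.5 AoD, 67.3, 69.4 and 71.6 in E9.5 AoV, 51.8, 49.9 and 51.8 in E10.5 AoD, 49.1, 48.7 and 51.6 in E10.5 AoV, and 52.5, 49.9 and 51.1 in UGR. The 3 E10.5 tissues shared 1 narrow range, below both E9.5 groups. Cdc6 fell by 28.2% in AoV (-0.48 ± 0.05, adjusted p = 9.55e-07) and by 38.9% in AoD (-0.71 ± 0.05, adjusted p = 1.29e-08).

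Rrm2 (chr12:25393106-25399011, plus strand), the regulated subunit of ribonucleotide reductase and named after its values were seen, measured 490, 474 and 523 RPM in E9.5 AoD, 356, 353 and 361 in E9.5 AoV, 314, 290 and 310 in E10.5 AoD, 289, 261 and 294 in E10.5 AoV, and 311, 293 and 314 in UGR. It fell by 38.5% in AoD and by 21.2% in AoV. Rrm1, the other subunit of the enzyme, ranged from 340 to 385 RPM with a coefficient of variation of 4.07% and did not pass in either stage comparison (-0.03 ± 0.04 in AoD and -0.05 ± 0.04 in AoV). The helicase genes Mcm2 to Mcm7 all fell in AoD, by 0.16 (Mcm6) to 0.55 (Mcm7) log2 units. The Mcm6 call in AoD was lost under quantile scaling (adjusted p = 0.0547). In AoV, Mcm3, Mcm5 and Mcm7 fell and Mcm2, Mcm4 and Mcm6 did not pass, with Mcm4 at 304, 281 and 294 RPM at E10.5 against 276, 298 and 300 at E9.5. The Mcm3 call in AoV was lost without replicate 1 or 3 of E9.5 AoV or replicate 2 of E10.5 AoV (adjusted p of up to 0.0828). It was also lost under quantile scaling (adjusted p = 0.0759). By the test of the difference, 6 of the 10 genes had a less negative change in AoV than in AoD. These were Cdc6, Mcm2, Mcm3, Mcm4, Mcm7 and Rrm2, with Mcm4 at 0.01 in AoV. A positive difference passed in 11.8% of all tested genes. Pcna, the sliding clamp, shares 52.1% of its windows and Mcm7 20.5% with other places in the genome, which makes their levels less certain.

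Promoters of the members were examined by role group, as a description. RefSeq promoters (GRCm38.p6) were found for 37 of the 45 genes, and the 250 bases before the start were searched on both strands. The letters of the E2F core (TTCCCGC or TTGGCGC) occurred in 5 of the 9 replication promoters found and in 13 of the 37 in all (35.1%), against 5.74% of 27025 promoters. The CCAAT letters occurred in 8 of the 9 and in 25 of the 37 (67.6%), against 34.5%. A TTGGCGC match ends in CCAA on the opposite strand, so that both motifs can overlap. Such matches describe letters and do not show binding. The letters did not follow the stage changes gene by gene. Mcm3 and Rrm2, which also fell on both sides, had 0 E2F core matches and 3 and 1 CCAAT. Rrm1, which passed in neither stage comparison, had 1 E2F core and 2 CCAAT. The 200 bases before the start are printed for Cdc6 (chr11:98907951-98908150, plus strand), Mcm5 (chr8:75109309-75109508, plus strand) and Mcm7 (chr5:138171884-138172083, minus strand), which fell on both sides and hold the E2F core. E2F core and CCAAT letters are in capitals.
Cdc6: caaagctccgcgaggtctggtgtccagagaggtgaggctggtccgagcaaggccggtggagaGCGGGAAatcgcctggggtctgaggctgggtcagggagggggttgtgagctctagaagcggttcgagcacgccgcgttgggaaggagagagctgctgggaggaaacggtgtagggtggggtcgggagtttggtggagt
Mcm5: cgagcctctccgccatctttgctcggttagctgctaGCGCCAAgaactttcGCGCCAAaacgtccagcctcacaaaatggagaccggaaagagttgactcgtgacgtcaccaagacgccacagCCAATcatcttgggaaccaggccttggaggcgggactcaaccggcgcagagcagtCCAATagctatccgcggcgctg
Mcm7: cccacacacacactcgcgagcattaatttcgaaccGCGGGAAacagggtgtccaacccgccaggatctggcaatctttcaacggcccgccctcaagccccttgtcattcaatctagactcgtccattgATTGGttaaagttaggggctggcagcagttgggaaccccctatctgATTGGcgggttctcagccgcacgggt
The Cdc6 stretch has 1 E2F core and 0 CCAAT, that of Mcm5 has 2 of each, and that of Mcm7 has 1 E2F core and 2 CCAAT.

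Of 8 mitotic kinases, checkpoint genes and proliferation markers, 6 fell in AoV (median -0.21) and 7 fell in AoD (median -0.30), with 0 higher. Over all tested genes 22.4% were lower in AoV and 27.9% in AoD. The AoV call of Bub1 was lost without replicate 2 or 3 of E9.5 AoV or replicate 1 or 2 of E10.5 AoV (adjusted p of up to 0.15). Plk1 (chr7:129302951-129313389, plus strand), the polo kinase that starts mitosis, measured 156, 162 and 170 RPM in E9.5 AoD, 139, 133 and 137 in E9.5 AoV, 134, 126 and 120 in E10.5 AoD, 116, 107 and 113 in E10.5 AoV, and 131, 125 and 133 in UGR. It fell by 22.1% in AoD (adjusted p = 1.81e-05) and by 17.9% in AoV (adjusted p = 0.000256). Aurka, a kinase of the spindle poles, measured 106, 101 and 110 RPM in E9.5 AoD, 99.3, 92.3 and 95.9 in E9.5 AoV, 91.1, 85.0 and 87.2 in E10.5 AoD, 78.6, 74.0 and 80.1 in E10.5 AoV, and 81.4, 85.6 and 89.3 in UGR, and fell by 0.30 ± 0.05 in AoV and 0.27 ± 0.05 in AoD. Bub1b, of the spindle checkpoint, measured 207, 224 and 222 RPM in E9.5 AoD, 190, 208 and 204 in E9.5 AoV, 184, 188 and 185 in E10.5 AoD, 169, 163 and 172 in E10.5 AoV, and 188, 191 and 195 in UGR. In all 3 genes the E9.5 ranges lay above the E10.5 ranges of the same side.

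Of both proliferation markers in common use, Mki67 did not pass in either stage comparison and Top2a passed in AoD. Mki67 (chr7:142881471-142908062, minus strand), which encodes the Ki-67 antigen, measured 657, 657 and 637 RPM in E9.5 AoD, 631, 640 and 540 in E9.5 AoV, 436, 670 and 469 in E10.5 AoD, 576, 656 and 486 in E10.5 AoV, and 523, 621 and 497 in UGR. Its ranges overlapped between stages on both sides, and its changes of -0.33 ± 0.14 in AoD (adjusted p = 0.0543) and -0.08 ± 0.14 in AoV (adjusted p = 0.668) did not pass. Replicate 2 had the highest Mki67 value in each of the 3 E10.5 groups. Top2a (chr11:98854257-98885503, minus strand), the topoisomerase of dividing cells, measured 697, 785 and 814 RPM in E9.5 AoD, 640, 740 and 700 in E9.5 AoV, 612, 667 and 631 in E10.5 AoD, 655, 630 and 626 in E10.5 AoV, and 669, 642 and 635 in UGR. It fell in AoD by 0.26 ± 0.06 (adjusted p = 0.00206), and its AoV change of -0.12 ± 0.06 did not pass (adjusted p = 0.129).

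Of the cyclins of S phase and mitosis, Ccna2 fell in AoV (-0.14, adjusted p = 0.00461), its AoD change was -0.08 (adjusted p = 0.0561), and the difference of -0.06 ± 0.05 between the sides did not pass (adjusted p = 0.449). It measured 313, 317 and 333 RPM in E9.5 AoD, 277, 277 and 286 in E9.5 AoV, 304, 304 and 302 in E10.5 AoD, 251, 253 and 260 in E10.5 AoV, and 271, 264 and 265 in UGR, so that AoV lay below AoD at both stages (adjusted p = 0.000261 at E9.5 and 3.42e-05 at E10.5). Ccnb1 fell by 0.24 ± 0.05 in AoD (adjusted p = 0.000428), from 236, 245 and 253 to 213, 198 and 209 RPM, and measured 210, 209 and 217 RPM in E9.5 AoV, 195, 189 and 207 in E10.5 AoV and 215, 199 and 215 in UGR, with 57.2% of its windows shared with other places. Ccnb2 went the other way in sign and passed on neither side (0.07 ± 0.05 in AoV and 0.11 ± 0.05 in AoD), with 81.5 to 86.8 RPM in E9.5 AoD, 85.5 to 90.2 in E9.5 AoV, 88.0 to 96.9 in E10.5 AoD, 87.7 to 93.7 in E10.5 AoV and 100 to 105 in UGR. Cdk1, the kinase of these cyclins, fell by 0.23 ± 0.04 in AoV (adjusted p = 0.000385) and by 0.20 ± 0.04 in AoD (adjusted p = 0.000793).

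The Cdc25 phosphatases remove the inhibitory phosphates from the CDKs. Cdc25a, the form that acts at the start of S phase, measured 154, 159 and 160 RPM in E9.5 AoD, 136, 138 and 134 in E9.5 AoV, 131, 128 and 131 in E10.5 AoD, 118, 115 and 122 in E10.5 AoV, and 133, 127 and 128 in UGR. It fell by 13.0% in AoV (adjusted p = 0.000327) and by 17.5% in AoD (adjusted p = 1.05e-05). Cdc25b was dorsal, at 50.6, 41.7 and 53.9 RPM in E9.5 AoD, 40.7, 30.3 and 36.9 in E9.5 AoV, 54.0, 52.6 and 49.5 in E10.5 AoD, 32.8, 38.4 and 36.3 in E10.5 AoV and 39.0, 43.1 and 41.0 in UGR. Its stage changes of 0.00 and 0.10 did not pass. All 3 phosphatase genes were lower in AoV than in AoD at both stages. The E10.5 call of Cdc25c was lost without replicate 1 of E10.5 AoD or replicate 1 or 3 of E10.5 AoV (adjusted p of up to 0.0968). Over all tested genes 20.1% were lower ventrally at E9.5 and 15.3% at E10.5.

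The CHR letters TTTGAA, which are known from promoters of mitosis genes together with CCAAT, occurred in 3 of the 7 mitotic promoters found and in 9 of the 37 promoters in all (24.3%), against 16.3% of all promoters. CCAAT occurred in 7 of the 7. Both motifs together occurred in 3 of the 7, against 5.76% of all promoters. Cdc20 (chr4:118437344-118437543, minus strand), which activates the ubiquitin ligase of anaphase, and Top2a (chr11:99024190-99024389, minus strand) are printed as mitosis genes that hold both, and the inhibitor gene Cdkn2c (chr4:109666757-109666956, minus strand), which moved in the opposite direction, is set beside them, with CCAAT, CHR and E2F core letters in capitals.
Cdc20: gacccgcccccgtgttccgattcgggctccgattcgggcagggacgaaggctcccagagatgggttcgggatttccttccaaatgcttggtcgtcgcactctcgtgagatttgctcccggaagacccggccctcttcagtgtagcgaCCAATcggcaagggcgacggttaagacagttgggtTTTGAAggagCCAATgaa
Top2a: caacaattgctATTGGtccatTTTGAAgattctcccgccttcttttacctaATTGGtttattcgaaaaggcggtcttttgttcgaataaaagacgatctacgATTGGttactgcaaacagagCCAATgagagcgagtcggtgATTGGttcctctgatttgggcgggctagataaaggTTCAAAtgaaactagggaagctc
Cdkn2c: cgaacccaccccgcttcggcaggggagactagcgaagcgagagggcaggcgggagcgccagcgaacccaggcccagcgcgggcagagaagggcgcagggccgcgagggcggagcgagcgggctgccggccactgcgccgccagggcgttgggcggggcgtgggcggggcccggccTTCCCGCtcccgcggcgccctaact
The printed stretch of Cdc20 holds 2 CCAAT and 1 CHR, that of Top2a 5 and 2, and that of Cdkn2c 0 of either and 1 E2F core. Cdkn2c does not stand for all genes that increased. In the 250 bases searched, Cdkn1b and Cdkn2d, which increased in AoD, had 2 and 1 CCAAT and 0 CHR. Cdkn2b and Rbl2, which also increased in AoD, had 0 CCAAT and 1 CHR each.

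The dorsal and ventral pieces of the aorta were then compared within each stage. At E9.5, 29 of the 43 members passed between AoV and AoD, against a background of 47.7%, with 3 higher and 26 lower ventrally, where 27.5% and 20.1% of all tested genes were. With a fold change of at least 2, 1 member remained, Cdkn2b, which entered the test through E9.5 AoV, so that nothing is read from this count beside its background of 11.8%, and the libraries did not overlap for 29 members, 25 of them lower (backgrounds 51.3% and 22.6%). The median of the members was -0.21, and that of all tested genes was 0.02. At E10.5, 17 of 43 passed, against 35.5%, with 2 higher and 15 lower, where 20.2% and 15.3% of all tested genes were, and the median was -0.11. With a fold change of at least 2, 2 members remained (background 10.1%), and the libraries did not overlap for 23 members, 20 of them lower (backgrounds 49.5% and 21.6%). The count of 17 past the test fell to 11 without replicate 1 of E10.5 AoD or without replicate 2 of E10.5 AoV. At E9.5, 9 of 10 replication genes were lower in AoV than in AoD (median -0.29), and at E10.5 1 of 10 was, Mcm6. The Mcm6 call was lost without replicate 1 or 3 of E10.5 AoD or replicate 1 or 2 of E10.5 AoV (adjusted p of up to 0.081). The E10.5 count also depended on the fit. With the replicate number as a block, Mcm5, Rrm1 and Rrm2 passed as lower (adjusted p = 0.0449, 0.0482 and 0.0192) and Mcm3 as higher (adjusted p = 0.013). Rrm1 and Rrm2 also passed under median-of-ratios size factors (adjusted p = 0.0254 and 0.0451). Of the G1 cyclins, Ccnd1, Ccnd2 and Ccne1 were lower and Ccnd3 was higher ventrally at both stages. Ccne2 passed at neither stage (adjusted p = 0.173 at E9.5 and 0.0648 at E10.5). The neural tube and somite marker sums moved with the AoD groups at both stages, the 6 somite and muscle genes summing to 448 to 618 RPM in AoD against 27.2 to 71.7 in AoV, with all 6 above 0 in every library, and their part in these differences was not tested.

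**Figure D5:**
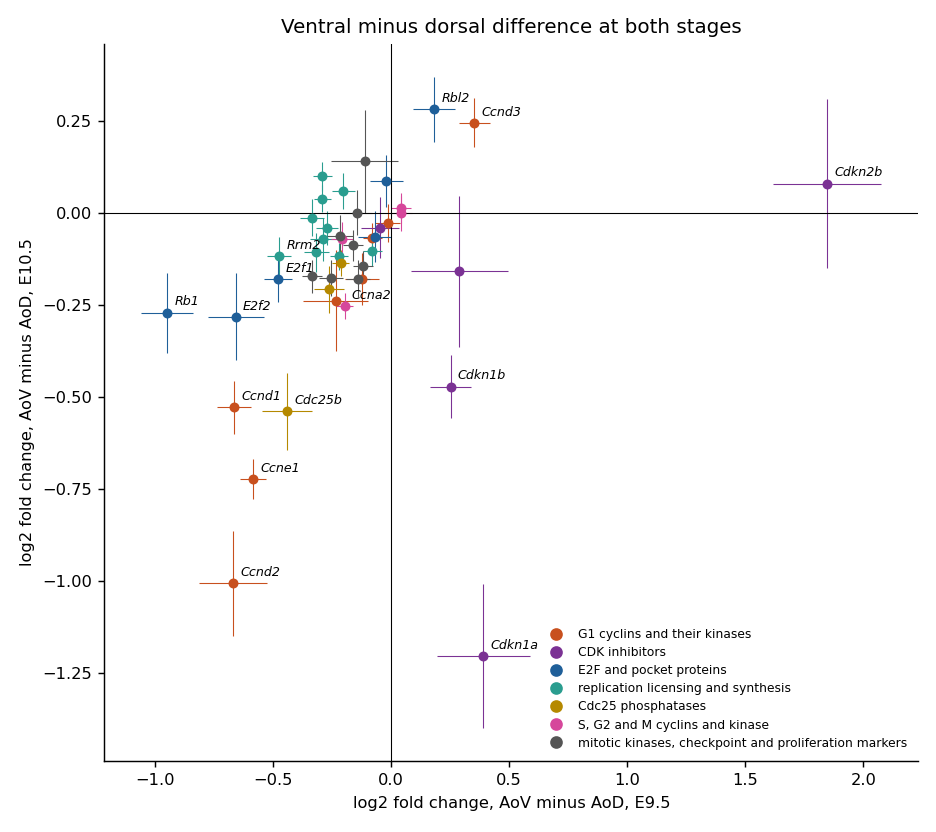
Ventral minus dorsal log2 fold change of each tested gene at E9.5 (horizontal axis) and at E10.5 (vertical axis), with standard errors, coloured by role. The replication genes lie left of 0 at E9.5 and near 0 at E10.5, while Ccnd1, Ccnd2 and Ccne1 are below 0 on both axes and Cdkn1a is lowest on the vertical axis.

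The test of whether a gene changed differently with stage in the ventral and the dorsal aorta passed for 11 of 43 members, against a background of 28.1%. Past a fold change of at least 2 there were 2 (background 11%). In 8 genes the difference was positive, against 11.8% of all tested genes. These were Cdc6, Mcm2, Mcm3, Mcm4, Mcm7, Rrm2 and E2f1, where the change in AoD was the more negative, and Rb1, which increased in AoV. In 3 genes it was negative, against 16.3% of all tested genes, and all 3 were CDK inhibitors, Cdkn1a, Cdkn1b and Cdkn2b. Those past 2-fold were Cdkn1a and Cdkn2b. For Cdkn2b the difference of -1.77 ± 0.33 includes the E9.5 AoV libraries through which it entered the test. It is counted here as a description only. The 11 calls were kept in all 15 fits that left out 1 library. For Cdkn2b this is no support, as the fits draw on the same E9.5 AoV libraries.

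Against the urogenital ridge, which lies beside the aorta, the ventral aorta at E10.5 differed in 13 of 43 members, against a background of 29.1%, with 2 higher and 11 lower, where 12.5% and 16.6% of all tested genes were. The counts depended on the libraries and the scaling, with 7 members without replicate 2 of E10.5 AoV and 8 under median-of-ratios size factors. The median of the members was -0.07, and that of all tested genes was -0.05. With a fold change of at least 2, 3 members remained (background 7.57%), Cdkn1a and Ccnd1 lower and Cdkn2b higher in AoV, and 5 of the 8 mitotic genes were lower by small amounts (median of the 8 genes -0.13), though the call of Aurka depended on 8 single libraries, that of Aurkb on 5 and that of Cdc20 on 2, replicate 2 of E10.5 AoV being 1 of them each time (adjusted p of up to 0.195, 0.15 and 0.0797). The dorsal aorta differed from UGR in 12 of 43 members, against 39.2%, with 8 higher and 4 lower, where 14.5% and 24.8% of all tested genes were, and 1 passed with a fold change of at least 2 (background 11.3%). This was Ccnd2, higher in AoD 2.25-fold (1.17 ± 0.14, adjusted p = 9.65e-06). Ccne1 was 1.4-fold higher in AoD (adjusted p = 3.79e-06), and 0 of the 8 mitotic genes passed. Both comparisons share the UGR libraries.

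Other genes of the cycle, from lists written with earlier results of these data known, are given by count, beside backgrounds of 22.4% lower and 23.6% higher in AoV and 27.9% lower and 30% higher in AoD. Of 43 other replication genes, such as the GINS, ORC, RFC and polymerase subunits, 27 fell and 0 increased in AoV (median -0.15), and 39 fell and 0 increased in AoD (median -0.30). The difference between the sides passed for 15, all positive, where 11.8% of all tested genes had a positive difference past the test. Of 47 other mitosis genes, such as kinesins, centromere and condensin subunits, 28 fell and 2 increased in AoV (median -0.16), and 36 fell and 2 increased in AoD (median -0.22). Of 21 other cyclins, CDKs and E2F family genes, 6 fell and 2 increased in AoV, and 8 fell and 1 increased in AoD, so that the shares that fell, 28.6% and 38.1%, lay near the background. The 1 gene of that list past a fold change of at least 2 in any comparison was Ccnb3, whose group means were all at or below 0.389 RPM. Within the other replication and mitosis lists, 0 genes passed with a fold change of at least 2 in any of the 7 comparisons.

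Of 24 checkpoint, p53-linked and antiproliferative genes, 9 increased and 6 fell in AoV and 10 increased and 9 fell in AoD, beside the same backgrounds, the share that fell in AoV being 25%. In this list 6 genes, named here, changed at least 2-fold in some comparison, 4 of them with stage in AoV and 4 in AoD, where 11% and 12.6% of all tested genes did. Cdkn1c, the third CIP/KIP inhibitor (p57), measured 298 ± 42 RPM in E9.5 AoD, 346 ± 21.7 in E9.5 AoV, 975 ± 60.6 in E10.5 AoD, 646 ± 40.7 in E10.5 AoV and 750 ± 56.5 in UGR (SD, n = 3), and increased in AoD by 1.72 ± 0.09 log2 units (adjusted p = 1.89e-09). Btg2, an antiproliferative gene of the BTG/TOB family, increased by 2.53 ± 0.29 in AoV (adjusted p = 4.48e-06) and by 2.07 ± 0.29 in AoD (adjusted p = 2.13e-05), from 33.6 ± 16.2 to 181 ± 34.8 RPM in AoV. Its relative Tob1 increased by 1.11 ± 0.08 in AoV (adjusted p = 7.96e-08). Gadd45b, a stress-induced gene, increased by 1.38 ± 0.23 in AoV and 1.63 ± 0.23 in AoD. Trp53inp1, a p53 target, increased by 1.23 ± 0.13 in AoD (adjusted p = 1.31e-06), from 20.1 ± 3.60 to 47.1 ± 4.62 RPM. In AoV its means were 30.5 ± 4.80 RPM at E9.5 and 48.2 ± 4.19 at E10.5. Gas1, a growth arrest gene that also acts as a Hedgehog co-receptor, measured 57.1 ± 8.29 RPM in E9.5 AoV and 118 ± 2.89 in E10.5 AoV against 103 ± 3.06 in E9.5 AoD and 57.0 ± 12.2 in E10.5 AoD, and its stage changes differed by 1.93 ± 0.17 (adjusted p = 1.51e-06).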

How the data were processed

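RNA of 15 samples in 5 groups of 3 was measured by sequencing. The authors aligned 50-base reads to NCBIM37 with TopHat and Bowtie 0.12.3, counted them over Ensembl genes, divided reads that matched several genes among them, and deposited RPM (reads per 1000000 reads) values, rounded and not adjusted for length. Another 12 deposited columns hold the authors' DESeq fold changes and adjusted p-values and were not used. Low values were whole multiples of 1 read (within 0.05 reads) for only 66.7% to 69.5%, so no count test was run.

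The filter kept genes that reached 0.5 RPM in 1 or more samples. Their log2(RPM + 0.1) was fitted by limma (3.58.1, in R 4.3.3; 1 mean per group, intensity trend, Benjamini-Hochberg adjustment over all tested genes). Fold changes are on that scale, which understates changes of low genes. The code was tested on simulated data. Members and lists were chosen with earlier results of these data known. Members were named when they passed with a fold change of at least 2, were CDK inhibitors, D cyclins, Mki67 or Top2a, or had the highest or lowest stage change of their role group. Exon lengths, positions and shared windows of 50 bases come from a GENCODE annotation of NCBIM37, and figures were drawn with matplotlib 3.10.9. The alternatives tried were another pseudocount, no filter, other scalings, the samples of the comparison only, the replicate number as a block, a fold threshold and leaving out each library. Same-numbered samples deviated together most clearly between E9.5 AoV and E9.5 AoD (r = 0.45, 0.35 and 0.19). At E10.5 r was 0.04 to 0.21 between AoV and AoD, 0.09 to 0.17 between AoV and UGR and 0.04 to 0.34 between AoD and UGR. Across stages it was -0.07 to 0.04 in AoV and -0.06 to 0.16 in AoD. Libraries that correlated best with their own number were 5 or 6 of 6 within a stage, and 2 of 6 (AoV) and 3 of 6 (AoD) across stages. Per the methods the tissue was pooled in 3 separate experiments, so p-values measure the spread between these pools, and whether numbers mark them is not given in the sources used here.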

Additional observations from a re-analysis of the deposited data

Results flagged for a closer look

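In 11 cell cycle genes the difference between the stage changes of the ventral and the dorsal aorta passed limma's test of the difference itself. It is given here as the AoV change minus the AoD change in log2 units with its SE. This was 11 of 43 tested members, or 25.6%, against 28.1% of all tested genes. The count is therefore not read as a result about the members as a set. Among the CDK inhibitors these were Cdkn1a at -1.59 ± 0.28 (adjusted p = 0.000523), Cdkn1b at -0.72 ± 0.12 (adjusted p = 0.000391) and Cdkn2b at -1.77 ± 0.33 (adjusted p = 0.000819), the last resting on the E9.5 AoV libraries through which alone it entered the test and so no support for a difference. Among the replication genes these were Mcm2 at 0.33 ± 0.05 (adjusted p = 0.000227), Mcm3 at 0.39 ± 0.06 (adjusted p = 9.3e-05), Mcm4 at 0.26 ± 0.07 (adjusted p = 0.0115) and Mcm7 at 0.32 ± 0.07 (adjusted p = 0.00328). The others of that group were Rrm2 at 0.36 ± 0.07 (adjusted p = 0.00203) and Cdc6 at 0.23 ± 0.07 (adjusted p = 0.0154). The remaining ones were E2f1 at 0.30 ± 0.09 (adjusted p = 0.0173) and Rb1 at 0.68 ± 0.15 (adjusted p = 0.00379). Groups of 3 libraries were not searched for single outlying samples.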

How the results depend on the processing

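The counts of members past the test were recomputed under each alternative. A fold change of at least 2 added to the threshold left 1 member for the AoV stage change, 2 for the AoD stage change, 2 between AoV and AoD at E10.5, 1 at E9.5, 3 between AoV and UGR, 1 between AoD and UGR and 2 for the difference between the stage changes. Under median-of-ratios size factors 8 members differed between AoV and UGR, where 13 did in the reported fit. Leaving out 1 library at a time gave 20 to 27 members for the AoV stage change, 28 to 31 for AoD, 11 to 20 between AoV and AoD at E10.5, 28 to 30 at E9.5, 7 to 14 between AoV and UGR, 9 to 13 between AoD and UGR and 11 to 14 for the difference. The pseudocount of 1 RPM, no filter, quantile scaling and the samples of the comparison alone kept every count within 1.5 times the reported one. No direction reversed among the 83 named results. The fold threshold of 2 lost 71 of their calls. Other calls lost were 4 under median-of-ratios size factors, 4 under quantile scaling, 3 without the filter, 3 with the samples of the comparison alone, 0 with the pseudocount of 1 RPM and, in 15 results, 50 without 1 library. Over all 43 tested members, quantile scaling lost 8 calls and gained 13, and median-of-ratios size factors lost 6 and gained 14. Lost and gained calls were 6 and 1 without the filter, and 6 and 12 with the samples of the comparison alone. The causes of these changes were not tested.

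With the replicate number as a block, 29 members passed for the AoV stage change, 33 for AoD, 22 between AoV and AoD at E10.5, 29 at E9.5, 14 between AoV and UGR, 12 between AoD and UGR and 14 for the difference. The block lost 0 calls and gained 16, among them Ccnb1, Ccnd2, Cdkn2b and Pcna for the AoV stage change and Mki67 (adjusted p = 0.00765), Ccna2 and Ccnb2 for the AoD stage change, none of which passed without it. Across stages same-numbered samples correlated at -0.07 to 0.04 in AoV and -0.06 to 0.16 in AoD. The stage calls gained by the block are therefore not read as results. Between E9.5 AoV and E9.5 AoD, where same-numbered samples deviated together most clearly, the block gained and lost 0. Between AoV and AoD at E10.5 the block gained Ccne2, Mcm5, Rrm1 and Rrm2 as lower and Mcm3 as higher in AoV. There, 5 of 6 libraries correlated best with their own number (r = 0.04 to 0.21). Depth limits Cdkn2a and Cdkn2b, whose levels correspond to at most 25 reads per library.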
